A study of Mus musculus with 18 samples.

Results

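The 9 genes described here were chosen by symbol from the 21638 genes of the deposited table: Ifitm1, Ifitm2, Ifitm3, Ifit1, Ifit3, Isg15, Irf7, Bst2 and Ifi27l2a. Ifitm1, Ifitm2 and Ifitm3 encode small membrane proteins that block the entry of viruses. Bst2, also called tetherin, holds budding virus particles on the cell surface. Ifit1 binds foreign RNA ends, and Ifit3 belongs to the same gene family. Isg15 is a ubiquitin-like protein that is attached to other proteins, Irf7 is a transcription factor that amplifies the type I interferon response, and Ifi27l2a encodes a small interferon-induced membrane protein. No measured value was used to choose them, but earlier results of these data were known when they were chosen.

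Interferons are secreted signals of infection and tissue damage. Type I interferons bind the receptor made of Ifnar1 and Ifnar2, and the kinases Jak1 and Tyk2 then activate a transcription factor complex that contains Stat2 and Irf9 and binds a DNA element called the interferon-stimulated response element (ISRE). Interferon gamma binds Ifngr1 and Ifngr2 and acts on a second element, the gamma-activated site (GAS). Brain endothelial cells line the vessels, carry these receptors, and are known to switch on interferon-induced genes in infection and inflammation.

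The cells were endothelial cells of the adult mouse cortex, sorted for CD31 and against CD41 and CD45, and their messenger RNA was sequenced with a kit for very small inputs. The 18 libraries formed 6 groups of 3. Wild-type mice had a sham operation or a middle cerebral artery occlusion (MCAO, a surgical model of ischaemic stroke), and cells came from the side of the operation (ipsilateral) and from the opposite side (contralateral). Mice with floxed Hdac2 alleles or floxed Ezh2 alleles and the tamoxifen-inducible recombinase Cdh5CreERT2, which is driven by an endothelial promoter, had the occlusion and gave ipsilateral libraries; they are labelled Hdac2 ECKO and Ezh2 ECKO. Hdac2 is a histone deacetylase and Ezh2 is the histone methyltransferase of Polycomb repressive complex 2. By their labels the mice of all 6 groups, wild type included, received tamoxifen at a dose of 75 mg per kg, which the deletion mice had in 5 doses from day 0 to day 4. Sorting was on day 7 after the occlusion. The labels call the wild-type mice only WT and do not say whether they carry the recombinase, and neither sex nor age beyond adult is given. Whether a library came from 1 mouse or from a pool is not given either, so the p-values below measure the spread between these libraries. Nor do the labels say whether both sides under 1 replicate number belong to a single animal, so the 6 MCAO or 6 sham libraries may be both sides of 3 mice.

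Total counts ran from 25791401 to 57576255 per library, and all 12 endothelial marker genes had counts in every group, with summed levels from 16942 to 40485 CPM. CPM, the usual depth-scaled unit of RNA-seq counts, is a gene's count relative to the TMM-scaled total of its library. The deleted genes did not follow the labels at the level of the whole gene. The 3 libraries labelled Ezh2 ECKO had 12.00, 19.7 and 8.41 CPM of Ezh2, which stood at 4.45, 7.02 and 7.85 CPM in MCAO ipsilateral. Every library labelled as deleted was thus above every wild-type library of that group (log2 fold change 1.05 ± 0.86, adjusted p 0.485). The same held for 2328 of the 17094 tested genes. In other wild-type groups Ezh2 reached 17.7 CPM (MCAO contralateral replicate 1) and 13.1 CPM (sham ipsilateral replicate 1), so Ezh2 ECKO did not stand apart from those. The libraries labelled Hdac2 ECKO had 57.6, 84.98 and 87.9 CPM of Hdac2, which stood at 84.4, 68.2 and 96.1 CPM in MCAO ipsilateral, with overlap (-0.11 ± 0.32, adjusted p 0.925). The counts pool all exons, and the floxed exons were not analysed here. The groups are therefore named by their labels, Hdac2 ECKO and Ezh2 ECKO, and every direction drawn from them rests on those labels.

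All 9 genes passed the filter on low counts, with at least 90 counts in each library. Per kilobase of counted feature, averaged over the 18 libraries, Ifitm3 had the highest level (3258 CPM per kilobase), followed by Ifitm2 (1255) and, far below, Ifi27l2a (157), Isg15 (146), Ifit3 (126), Bst2 (114), Ifit1 (97.4), Ifitm1 (19.0) and Irf7 (13.5). Ifitm1, Ifitm2, Ifitm3 and Irf7 lie close together on chromosome 7 (GRCm38). Ifitm2 spans 140954837 to 140955987 on the minus strand, Ifitm1 140967221 to 140969825 on the plus strand, Ifitm3 141009586 to 141010770 on the minus strand and Irf7 141262706 to 141266481 on the minus strand. Ifit3 (34583531 to 34588731) and Ifit1 (34640871 to 34650009) are neighbours on the plus strand of chromosome 19. Isg15 lies on chromosome 4 at 156199455 to 156200796, Bst2 on chromosome 8 at 71534255 to 71537456 and Ifi27l2a on chromosome 12 at 103442167 to 103443680, all on the minus strand. Some of these counts are uncertain because of near-identical copies. Of the 50-base stretches in its transcripts, Ifit3 shared 51.2% with Ifit3b and Ifitm2 shared 48.5% with predicted genes including the overlapping Gm45717, against 10.0% or less for the other 7 genes. The counted length of Irf7, 3776 bases, equals its whole span, introns included, and it overlaps Phrf1 on the other strand; whether counting used the strand is not stated in the sources used here.

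The promoters are shown because the ISRE is the element through which most of these genes are known to be induced. RefSeq promoter windows (GRCm38.p6, 250 bases before to 50 after the start) were found for 8 of the 9 genes, and none was listed for Ifi27l2a. The ISRE core was searched as GAAANNGAAA on both strands, and 6 of the 8 windows held at least 1 copy, against 3.44% of all 32851 promoter windows in the table. The 6 stretches follow, 5′ to 3′ on the strand of the gene, with the ISRE cores in capitals and 20 bases on each side; Ifitm3 is limited to the cores and what lies between them, because they fall after its start.
Ifitm2: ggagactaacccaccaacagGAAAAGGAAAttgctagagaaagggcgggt
Ifitm3: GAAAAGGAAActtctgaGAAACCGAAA
Ifit1: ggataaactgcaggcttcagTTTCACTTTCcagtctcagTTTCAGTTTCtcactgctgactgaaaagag
Ifit3: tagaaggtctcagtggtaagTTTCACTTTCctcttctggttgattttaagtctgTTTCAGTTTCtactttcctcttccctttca
Isg15: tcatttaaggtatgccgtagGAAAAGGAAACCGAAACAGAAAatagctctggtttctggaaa
Bst2: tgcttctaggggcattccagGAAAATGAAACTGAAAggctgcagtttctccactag

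The stretches lie at chr7:140955978-140956027 (minus) for Ifitm2, chr7:141010716-141010742 (minus) for Ifitm3, chr19:34640765-34640833 (plus) for Ifit1, chr19:34583353-34583436 (plus) for Ifit3, chr4:156200855-156200916 (minus) for Isg15 and chr8:71537567-71537622 (minus) for Bst2. Isg15 had 3 cores that overlap one another, Bst2 had 2 that overlap, and Ifitm3, Ifit1 and Ifit3 had 2 separate cores each. Ifitm2, Ifitm3 and Isg15 carry the same letters in their first core. Ifit1 and Ifit3 share the letters of both of their cores, which lie on the opposite strand and are printed as the reverse complement. The GAS core, searched as TTCNNNGAA, was found in the windows of Ifitm3 and Bst2, where it overlaps an ISRE core, and in 8.30% of all windows. The windows of Ifitm1 and Irf7 held neither sequence of letters. The Ifitm1 window (chr7:140967826-140968125, plus) lies inside the gene span given above, so the bases before that span were not searched. A match is a description of the sequence and shows no binding.

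Ifitm1 separated the operated groups completely on both sides. It was at 8.48, 6.77 and 7.60 CPM in sham ipsilateral and at 12.01, 13.1 and 20.03 CPM in sham contralateral. After the occlusion it was at 36.1, 29.6 and 27.2 CPM ipsilaterally and 23.7, 28.5 and 22.5 CPM contralaterally. All 6 MCAO libraries were above all 6 sham libraries. The libraries labelled Hdac2 ECKO were at 53.1, 30.8 and 21.2 CPM, around the MCAO ipsilateral values, and those labelled Ezh2 ECKO at 11.4, 2.62 and 19.01 CPM, each below them.

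Ifitm3 and Ifitm2 followed each other closely. Ifitm3 was at 1533, 954 and 1229.7 CPM in sham ipsilateral, 3085, 4128 and 3050.4 CPM in MCAO ipsilateral and 1755, 507 and 1136 CPM in Ezh2 ECKO. Its values were 2081, 1349 and 3118 CPM in sham contralateral, 1027, 3044 and 3437 CPM in MCAO contralateral and 3892, 2864 and 1574 CPM in Hdac2 ECKO. MCAO ipsilateral lay above both sham ipsilateral and Ezh2 ECKO without overlap, while the other 3 groups each spread over a wide range. Ifitm2 was at 613, 322 and 499 CPM in sham ipsilateral, 1267, 1555 and 953 CPM in MCAO ipsilateral and 489.8, 213 and 338 CPM in Ezh2 ECKO. Its levels were 857, 475 and 1349 CPM in sham contralateral, 427, 1535 and 1197 CPM in MCAO contralateral and 1159.8, 1034 and 508 CPM in Hdac2 ECKO. The separations were the same as for Ifitm3, and in addition each Hdac2 ECKO library was above each Ezh2 ECKO library.

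Bst2 was low in the libraries labelled Ezh2 ECKO. It was at 35.1, 11.6 and 22.5 CPM there, against 132, 243 and 45.8 CPM in MCAO ipsilateral and 225, 170.4 and 100.4 CPM in Hdac2 ECKO. In the sham groups it was at 100.2, 45.9 and 89.7 CPM ipsilaterally and 149, 83.2 and 132 CPM contralaterally, and in MCAO contralateral it spread widely, at 12.7, 181 and 66.7 CPM. The Ezh2 ECKO libraries were thus below all libraries of 4 of the other groups, and overlapped MCAO contralateral through 1 library. Of all tested genes, 15.3% were lower without overlap against MCAO ipsilateral and 6.87% against Hdac2 ECKO. The shares against the sham groups were not computed.

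Ifit1 and Ifit3 differed from the Ifitm genes. Ifit1 had the narrowest range, with 141, 192 and 206 CPM in sham ipsilateral, 202, 256 and 235 CPM in sham contralateral, 266, 334 and 248 CPM in MCAO ipsilateral and 193, 226 and 289 CPM in MCAO contralateral. It was at 172, 277 and 382 CPM in Hdac2 ECKO and at 542, 157 and 341 CPM in Ezh2 ECKO, which had its highest group mean. Ifit3 was at 128, 89.4 and 108 CPM in sham ipsilateral and 359, 433 and 277 CPM in MCAO ipsilateral, with no overlap. The other Ifit3 values were 194, 110.4 and 208 CPM in sham contralateral, 105, 165 and 494 CPM in MCAO contralateral, 167, 179 and 277 CPM in Hdac2 ECKO and 357, 83.5 and 227 CPM in Ezh2 ECKO, and these 4 groups overlapped one another.

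Isg15 was at 59.9, 23.2 and 47.4 CPM in sham ipsilateral, 91.2, 56.7 and 49.8 CPM in sham contralateral, 101, 187 and 130.4 CPM in MCAO ipsilateral and 27.1, 139.9 and 179 CPM in MCAO contralateral. It was at 286, 198 and 75.03 CPM in Hdac2 ECKO and 88.97, 19.5 and 84.4 CPM in Ezh2 ECKO. MCAO ipsilateral was above both sham groups and above Ezh2 ECKO in every library. Irf7 was at 38.96, 18.6 and 29.6 CPM in sham ipsilateral, 43.2, 23.7 and 30.3 CPM in sham contralateral, 65.97, 150.2 and 60.3 CPM in MCAO ipsilateral and 33.7, 54.3 and 64.6 CPM in MCAO contralateral. It was at 89.97, 30.2 and 48.8 CPM in Hdac2 ECKO and 55.1, 22.4 and 59.1 CPM in Ezh2 ECKO. The highest Irf7 value belonged to MCAO ipsilateral replicate 2, and its 3 libraries were above all 6 sham libraries.

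Ifi27l2a was the most variable of the 9 genes, with a ratio of 150 between its highest and lowest library. The libraries labelled Hdac2 ECKO were at 385, 135 and 41.3 CPM and had the highest group mean, and those labelled Ezh2 ECKO were at 37.9, 2.56 and 18.6 CPM, the lowest mean. It was at 42.6, 18.2 and 29.6 CPM in sham ipsilateral, 105, 80.8 and 59.7 CPM in sham contralateral, 50.4, 124 and 47.2 CPM in MCAO ipsilateral and 19.5, 73.6 and 34.2 CPM in MCAO contralateral. Of the 4 wild-type groups sham contralateral had the highest mean.

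**Figure D1:**
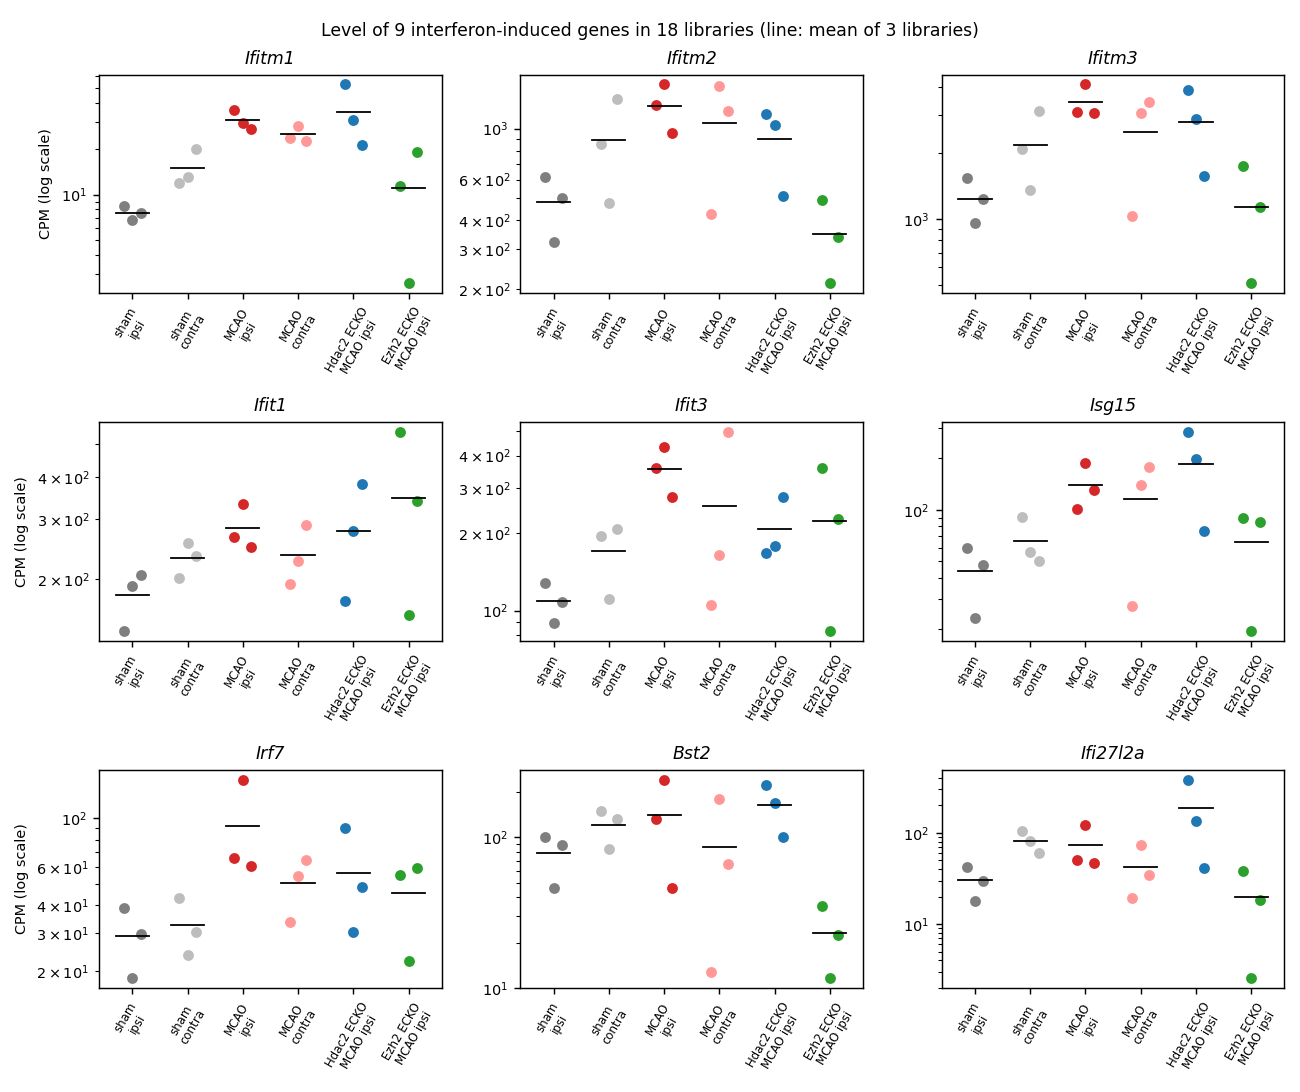
Level of each of the 9 genes in the 18 libraries, in CPM on a log scale, by group; a point is 1 library and the line the mean of 3. Ifitm1 sits between 6.77 and 20.03 CPM in the 6 sham libraries and between 22.5 and 36.1 CPM in the 6 MCAO libraries of wild-type mice, and Bst2 between 11.6 and 35.1 CPM in the libraries labelled Ezh2 ECKO.

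The group means were ordered differently from gene to gene. Sham ipsilateral had the lowest mean for Ifitm1, Ifit1, Ifit3, Isg15 and Irf7 and the libraries labelled Ezh2 ECKO the lowest for the other 4. The highest mean was in MCAO ipsilateral for Ifitm2, Ifitm3, Ifit3 and Irf7, in Hdac2 ECKO for Ifitm1, Isg15, Bst2 and Ifi27l2a and in Ezh2 ECKO for Ifit1. Neighbours in these orders overlapped in every case but 2: for Ifitm1, MCAO contralateral was above sham contralateral, and for Bst2, sham ipsilateral was above Ezh2 ECKO.

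The genes varied together across libraries. The joint level of a library was taken as the mean of the 9 standardised log2(CPM + 1) values. It was lowest in Ezh2 ECKO replicate 2 (-1.91 SD units), sham ipsilateral replicate 2 (-1.17) and MCAO contralateral replicate 1 (-0.88), and highest in MCAO ipsilateral replicate 2 (1.28). Those same 3 low libraries had the most reads on olfactory and vomeronasal receptor genes, which endothelial cells are not known to use, at 2083, 716 and 1889 CPM (of the unscaled totals) against 152 to 639 in the other 15. They also had many genes with a count above 0 (20753, 19868 and 20940 of the table's genes), and 2 of them had the smallest totals. The part of these reads in the levels of the 9 genes was not tested, and the comparisons below are therefore also given without those 3 libraries.

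**Figure D2:**
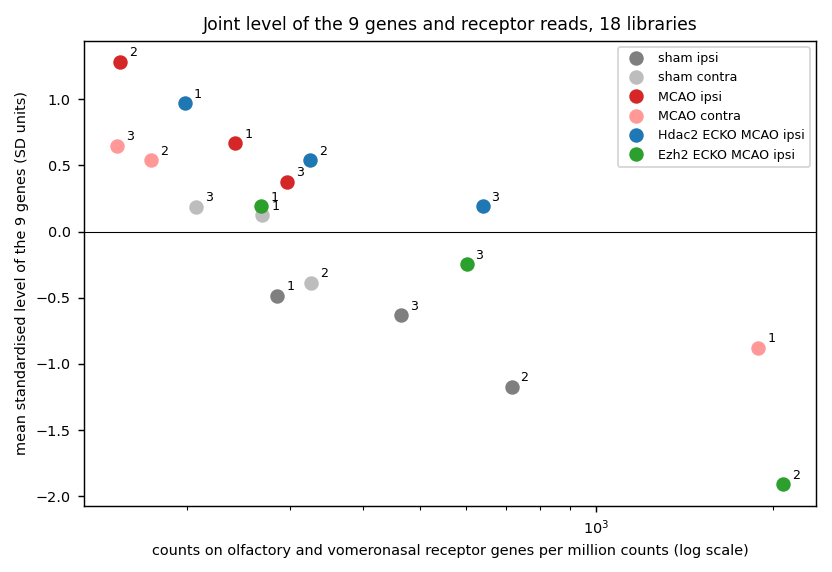
Joint level of the 9 genes in each library (mean standardised log2 level, in SD units) against its receptor reads in CPM (log scale), with colours for groups and numbers for replicates. The 3 libraries with the most receptor reads have the 3 lowest joint levels, from -1.91 to -0.88, and belong to 3 different groups.

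Among pairs of the 9 genes, Ifitm2 and Ifitm3 had the highest correlation over the 18 libraries (Pearson r 0.97, Spearman rho 0.93, and 0.95 with group means removed). Isg15 and Ifitm3 followed with r 0.87, and Bst2 and Ifi27l2a with r 0.85. Ifit1 stood apart, with r 0.71 to Ifit3 and 0.40 or less to the other 7. By the same measure, the 5 genes outside the 9 that were most like their joint level among 7805 genes averaging 10 CPM or more were Xaf1 (r 0.962), Rtp4 (0.944), Rpl10 (0.935), Tmem176b (0.935) and Gsta4 (0.934). Xaf1 and Rtp4 are themselves interferon-induced genes. With group means removed the 5 were Pomc (0.967), Syngr2 (0.966), Capzb (0.962), Psmc3 (0.958) and Tmed10 (0.956). These correlations are descriptions over libraries that also share depth and receptor reads.

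After the occlusion, on the ipsilateral side, all 9 genes had a higher mean than in sham ipsilateral, but none passed the test. In 8 of the 9, every one except Bst2, all 3 MCAO libraries were above all 3 sham libraries; 13.3% of the 17094 tested genes were separated in this direction. Unadjusted p-values under 0.05 were obtained for 6 of the 9 (Ifitm1, Irf7, Ifit3, Ifitm3, Ifitm2 and Isg15), against 4.26% of all tested genes higher at that level. Ifitm1 was at 30.9 ± 4.59 against 7.62 ± 0.855 CPM (mean ± SD, n = 3), which the fit put at 2.02 ± 0.55 (log2 fold change ± SE; adjusted p 0.496 by edgeR's quasi-likelihood test). Irf7 was at 92.1 ± 50.4 against 29.1 ± 10.2 CPM, or 1.66 ± 0.49 on the log2 scale (adjusted p 0.509). The 9 log2 fold changes lay between 0.65 and 2.02, the median being 1.47, and the median of all tested genes was -0.09. No gene of the table passed the test in this comparison (0% of 17094), and 1210 genes had an unadjusted p under 0.05. DESeq2 called 71 genes here, of which Ifitm1 was the only one of the 9 (adjusted p 0.0275), and a fit of only these 2 groups called 6 of the 9 and 220 of the 17094 genes.

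Several other measures moved with this comparison. Short genes as a whole were higher in MCAO ipsilateral: among genes of mean CPM at least 10, the median log2 fold change was 0.61 for 278 genes with a counted feature up to 1100 bases, 0.69 for those from 1100 to 2000 bases and -0.18 for those above 4000 bases. Of those 278 genes up to 1100 bases, 90.3% were higher. The counted features of 6 of the 9 genes were 1094 bases or shorter. With the trend on feature length removed, the median of the 9 was 0.85, and with receptor reads as a covariate it was 0.90. The summed level of 13 microglia and macrophage markers was 86.9 to 98.3 CPM in MCAO ipsilateral and 38.7 to 45.2 CPM in sham ipsilateral, with 12 of 13 markers higher in mean and none of them at 0 in all 3 libraries of either group (two-sided exact permutation p 0.1, the smallest that 3 against 3 libraries allow). That of the 12 endothelial markers was 26039 to 40485 against 19315 to 24379 CPM, and that of the 4 platelet markers 34.6 to 38.2 against 17.2 to 22.8 CPM. In mean, 7 of the 12 endothelial and 3 of the 4 platelet markers were higher. Lower without overlap in MCAO ipsilateral were the sums of 8 pericyte and smooth muscle markers (38.0 to 88.7 against 97.3 to 151 CPM), 5 astrocyte markers (2.55 to 8.12 against 10.2 to 11.3 CPM) and 5 neuron markers (0.547 to 1.37 against 1.65 to 3.05 CPM). The single markers did not all follow these sums. Higher in mean were 1 of the 8 pericyte and smooth muscle, 3 of the 5 astrocyte and 0 of the 5 neuron markers. The part of these differences in the levels of the 9 genes was not tested. In bulk RNA, a larger share of cells of a type and more RNA per cell cannot be told apart. All 9 genes were still higher in mean without the 3 libraries rich in receptor reads, with a median of 1.34, and none passed the test.

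**Figure D3:**
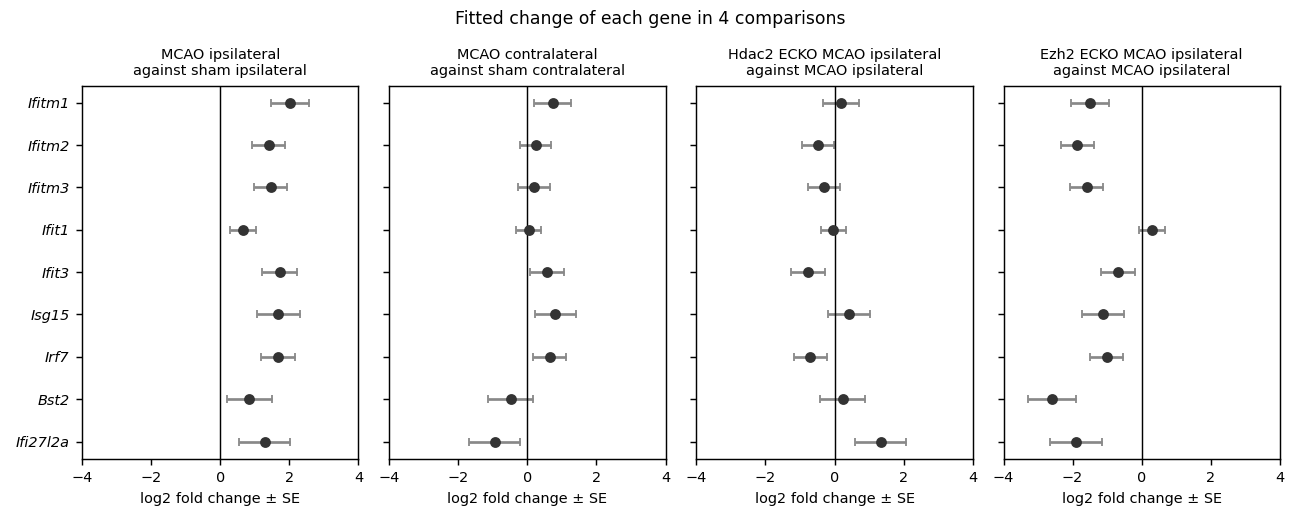
Fitted log2 fold change of each of the 9 genes, with its SE, in 4 comparisons of 3 against 3 libraries. All 9 points lie above 0 in MCAO ipsilateral against sham ipsilateral (0.65 to 2.02), and 8 lie below 0 in the libraries labelled Ezh2 ECKO against MCAO ipsilateral, down to -2.60 for Bst2.

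On the contralateral side the occlusion had smaller and mixed values. Of the 9 genes 7 had a higher mean than in sham contralateral, the median log2 fold change was 0.24 (0.17 for all genes), and none passed the test (0% of all genes called, 754 of them at an unadjusted p under 0.05; DESeq2 called 26 genes and none of the 9). Ifitm1 was at 24.9 ± 3.19 against 15.04 ± 4.35 CPM, a log2 fold change of 0.73 ± 0.53 (adjusted p 0.920), and was the only one of the 9 whose libraries did not overlap, against 3.65% of all genes in that direction. Irf7 had 0.65 ± 0.48 (adjusted p 0.920). Ifi27l2a and Bst2 had lower means, with log2 fold changes of -0.95 and -0.49. Without the 3 libraries rich in receptor reads, which include MCAO contralateral replicate 1, the median was 0.63 and 8 of the 9 had higher means. Without MCAO contralateral replicate 3 the median was -0.10. The pericyte and smooth muscle markers summed to 12.4 to 60.4 CPM in MCAO contralateral against 86.7 to 173 CPM in sham contralateral, with 0 of 8 higher in mean; their part was not tested.

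With both sides in 1 contrast, none of the 9 passed the test (0.152% of all genes did), and 6 had an unadjusted p-value under 0.05 in the higher direction, against 5.52% of all genes. Ifitm1 had a log2 fold change of 1.37 ± 0.38 (adjusted p 0.171) and Irf7 of 1.16 ± 0.34 (0.204). Ifitm1 alone of the 9 had all 6 MCAO libraries above all 6 sham libraries, as did 0.421% of all genes. With the 2 sides of a number summed to 1 sample, the test called 0 genes (668 at an unadjusted p under 0.05), and the median of the 9 was 0.82. Single libraries changed the calls in the other direction. Without MCAO contralateral replicate 1, Ifit3 passed (adjusted p 0.0448). Without all 3 libraries rich in receptor reads, Ifitm1 (log2 fold change 1.38 ± 0.31), Ifit3 (1.30 ± 0.29) and Isg15 (1.36 ± 0.31) passed, each at an adjusted p of 0.0480, among 130 genes called. DESeq2 called Ifitm1 (0.00935) and Irf7 (0.0287) among 334 genes. Summed markers averaged 78.9 CPM in the 6 MCAO and 49.9 CPM in the 6 sham libraries for microglia and macrophages, 51.6 and 124 CPM for pericytes and smooth muscle, and 6.60 and 13.2 CPM for astrocytes. In the same order, 11 of 13, 0 of 8 and 2 of 5 markers were higher in mean after the occlusion. Their part was not tested.

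The effect of the occlusion was larger ipsilaterally in the fitted values of all 9 genes, but the test of that difference passed for none (0% of all genes). Ifi27l2a had the largest difference, 2.24 ± 1.04 (adjusted p 0.941), followed in p by Ifitm3 with 1.27 ± 0.66 (0.941). The sham sides entered it: all 9 genes had a lower mean in sham ipsilateral than in sham contralateral, with a median log2 fold change of -0.65, no call (0% of all genes) and no overlap for Ifitm1 and Ifi27l2a, against 6.98% of all genes lower without overlap. Ifitm2 was the gene with the smallest p there (-0.90 ± 0.46, adjusted p 1.00), then Ifi27l2a (-1.44 ± 0.74, 1.00). Between the sides of the MCAO mice, the 9 log2 fold changes ran from 0.26 to 0.86, with Irf7 at 0.86 ± 0.48 and Ifi27l2a at 0.80 ± 0.73 (both adjusted p 1), and again 0% of all genes were called. DESeq2 called 6 genes in each of these 3 comparisons and none of the 9. Genes with a feature up to 1100 bases were at a median of -0.71 between the sham sides, where 94.6% of them were lower. In the difference of the occlusion effects they were at 0.77, with 92.8% above 0. Marker sums differed between the sham sides without overlap: ipsilaterally the endothelial markers were at 19315 to 24379 CPM against 27997 to 38496 CPM, and the microglia and macrophage markers at 38.7 to 45.2 against 48.9 to 66.8 CPM, where C1qa was at 0 in all 3 contralateral libraries. Red cell (19222 to 59003 against 72026 to 129586 CPM), platelet (17.2 to 22.8 against 24.8 to 36.9 CPM) and astrocyte sums (10.2 to 11.3 against 12.3 to 21.9 CPM) were also lower ipsilaterally. Against these sums, 3 of 12 endothelial and 4 of 13 microglia and macrophage markers had a higher mean ipsilaterally. So did 1 of 5 red cell, 1 of 4 platelet and 2 of 5 astrocyte markers. Between the MCAO sides, the sums of oligodendrocyte lineage markers (5.34 to 22.0 against 26.0 to 187 CPM) and neuron markers (0.547 to 1.37 against 4.28 to 8.21 CPM) were lower ipsilaterally. Of these markers, 1 of 6 and 0 of 5 had a higher mean there. Their part was not tested. Without the 3 libraries rich in receptor reads, the median of the 9 was -0.56 between the sham sides, 0.12 between the MCAO sides with 7 of the 9 above 0, and 0.58 in the difference of the occlusion effects.

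The libraries labelled Ezh2 ECKO had lower means than MCAO ipsilateral for 8 of the 9 genes, and Ifitm2 and Bst2 came close to the threshold without passing it. Ifitm2 was at 347 ± 139 against 1258 ± 301 CPM, a log2 fold change of -1.86 ± 0.47 (adjusted p 0.0501). Bst2 was at 23.1 ± 11.8 against 140.1 ± 98.6 CPM, a log2 fold change of -2.60 ± 0.69 (adjusted p 0.0567). Ifit1 was the exception, at 0.29, and the median of the 9 was -1.49. In 7 of the 9, every one except Ifit1 and Ifit3, all Ezh2 ECKO libraries were below all MCAO ipsilateral libraries, as were those of 15.3% of all genes. Unadjusted p-values under 0.05 went to 6 of the 9, against 10.7% of all genes lower at that level. In all, 1.46% of genes passed the test, 39 higher and 211 lower (119 higher and 249 lower with RLE scaling).

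The call for Ifitm2, Bst2 and Ifitm3 in this comparison changed with the fit. Without MCAO ipsilateral replicate 3, Bst2 (adjusted p 0.0321) and Ifitm2 (0.0490) passed. Without the 3 libraries rich in receptor reads, which include Ezh2 ECKO replicate 2, Bst2 had -2.32 ± 0.59 (0.0323) and Ifitm2 -1.64 ± 0.43 (0.0375) and both passed, with the count over all genes at 891 in place of 250. With receptor reads as a covariate none passed and the median was -0.84. DESeq2 called Bst2 (0.00634), Ifitm2 (0.00683) and Ifitm3 (0.0232) among 1617 genes. The length of the counted feature moved with this comparison too. Tested genes up to 1100 bases had a median of -0.52, those from 1100 to 2000 bases -0.88 and those above 4000 bases 0.21, and of the 9 genes the 6 shortest had values from -2.60 to -1.12. Lower values were found for 70.1% of the tested genes up to 1100 bases and 80.7% of those from 1100 to 2000 bases. With the trend on length removed, the median of the 9 was -0.82 and Bst2 (0.0467), Ifitm2 (0.0251) and Ifitm3 (0.0346) passed, among 339 genes. The summed microglia and macrophage markers were at 59.0 to 69.8 CPM in Ezh2 ECKO, below MCAO ipsilateral, with 4 of 13 higher in mean and none at 0 in the whole group. Those of 7 other leukocyte genes (4.86 to 10.4 against 10.7 to 14.5 CPM) and of 4 platelet genes (17.2 to 29.5 against 34.6 to 38.2 CPM) were also lower without overlap. Even so, 3 of the 7 leukocyte genes and 1 of the 4 platelet genes had a higher mean in Ezh2 ECKO. The 5 red cell genes summed to 70.1 to 671 CPM in Ezh2 ECKO and to 38267 to 65445 CPM in MCAO ipsilateral, and with those genes removed before scaling the median of the 9 was -1.46. The part of markers and length in these values was not tested.

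**Figure D4:**
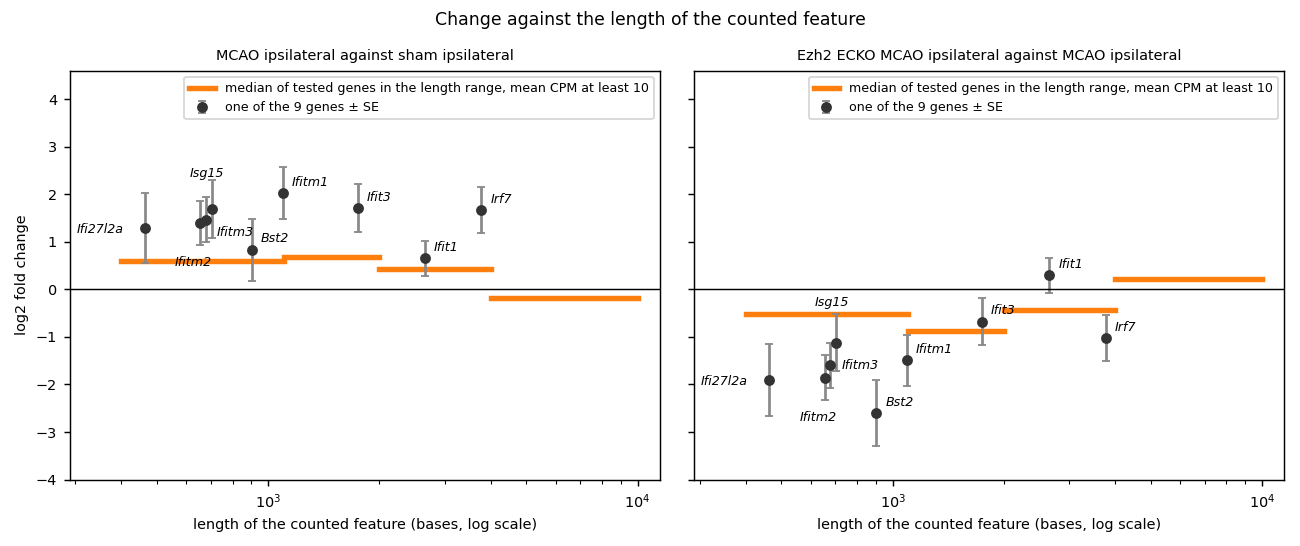
Log2 fold change of each of the 9 genes (points, ± SE) against the length of its counted feature in bases (log scale), with the median of tested genes of mean CPM at least 10 in 4 length ranges (orange bars). Short genes as a whole were above 0 in MCAO ipsilateral against sham ipsilateral (median 0.61 up to 1100 bases) and below 0 in Ezh2 ECKO against MCAO ipsilateral (median -0.52).

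The libraries labelled Hdac2 ECKO did not separate from MCAO ipsilateral for any of the 9 genes, and none passed the test (0.0117% of all genes did). Ifi27l2a was at 187 ± 178 against 73.7 ± 43.2 CPM, a log2 fold change of 1.34 ± 0.74 (adjusted p 0.567). Ifit3 was at 208 ± 60.2 against 356 ± 78.1 CPM, a log2 fold change of -0.78 ± 0.49 (adjusted p 0.635). The other 7 lay between -0.71 for Irf7 and 0.42 for Isg15, with 4 of the 9 above 0. At an unadjusted p under 0.05 there were 1683 genes and none of the 9, and DESeq2 called 239 genes and none of the 9. The summed microglia and macrophage markers were lower than in MCAO ipsilateral without overlap, at 64.4 to 82.9 CPM, with 3 of 13 higher in mean. Their part was not tested. The median of the 9 was -0.08, and none passed, without the 3 libraries rich in receptor reads. Both deletions were compared with the same 3 MCAO ipsilateral libraries, which also entered the comparison with sham.

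Compared directly, the libraries labelled Hdac2 ECKO had higher means than those labelled Ezh2 ECKO for 7 of the 9 genes, and none passed the test (0.123% of all genes did). Ifi27l2a had a log2 fold change of 3.25 ± 0.79 and Bst2 of 2.84 ± 0.70, each with an adjusted p of 0.104. Ifitm1, Ifitm2, Bst2 and Ifi27l2a did not overlap between these groups, as for 6.87% of all genes in that direction, and 6 of the 9 had an unadjusted p under 0.05 (6.96% of all genes). Ifit1 (-0.32) and Ifit3 (-0.10) were the 2 genes below 0. DESeq2 called Ifi27l2a (0.00120), Bst2 (0.00241) and Ifitm1 (0.0405) among 647 genes, and with receptor reads as a covariate Ifi27l2a passed (0.0433) among 54. The median of the 9 was 1.38, against 0.70 for all genes with features up to 1100 bases, of which 90.3% were higher. The red cell genes summed to 49294 to 297849 CPM in Hdac2 ECKO and to 70.1 to 671 CPM in Ezh2 ECKO; their part was not tested. None of the 9 passed without the 3 libraries rich in receptor reads, where their median was 1.09.

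The rest of the interferon pathway was followed with a list of 107 further genes in the table, of which 98 passed the filter on low counts. The interferons themselves were near the limit of detection. Ifnb1, Ifna1, Ifna2, Ifna4 and Ifng failed the filter, and none of these was above 1.69 CPM in any library. Ifna1 was at 0 in 14 of the 18 libraries, and the level that a count of 0 allows (3 counts, counting error only) ran from 0.0521 to 0.116 CPM over the libraries. The type I receptor genes were present. Ifnar2 ran from 93.4 to 481 CPM and Ifnar1 from 48.5 to 168 CPM. Ifngr1 ran from 7.31 to 86.9 CPM and Ifngr2 from 0.0588 to 19.1 CPM. Ifnlr1, another receptor gene of the list, failed the filter and was not above 0.526 CPM in any library. In MCAO ipsilateral Ifnar1 was at 79.3, 70.4 and 111 CPM and in sham ipsilateral at 168, 127 and 139.6 CPM. Ifnar1 was thus lower without overlap, as were 2463 of the 17094 tested genes, but did not pass the test (-0.74 ± 0.31, adjusted p 0.645). The signal carriers Stat2 (23.5 to 55.9 CPM) and Irf9 (43.3 to 242 CPM) were detected in every library.

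In MCAO ipsilateral against sham ipsilateral none of the 98 pathway genes passed the test. DESeq2 called 1 of them (Isg20) among 71 genes, a fit of only these 2 groups 14 among 220 and voom 18 among 1273. Of 62 other induced effectors 48 had a higher mean and their median was 0.64, with 28 higher without overlap, against 13.3% of all tested genes. The median of the 98 was 0.53, against -0.09 for all tested genes. With the length trend removed these medians were 0.29 and -0.15, and with receptor reads as a covariate 0.21 and -0.04. Ifi35 (324, 476 and 191 against 160.4, 93.9 and 127 CPM, log2 fold change 1.38 ± 0.40, adjusted p 0.509) and Isg20, an RNA exonuclease (38.8, 53.8 and 48.1 against 21.99, 11.3 and 13.4 CPM, 1.59 ± 0.46, 0.509), had the smallest p-values of the list. The 15 signal transducers had a median of -0.04 and the 13 nucleic acid sensors of -0.34; the difference between these lists was not tested. In the other wild-type comparisons the list again had no call, although 6 of the 98 passed over both sides without MCAO contralateral replicate 1 and 5 without the 3 libraries rich in receptor reads (130 of all genes). DESeq2 called 6 of the 98 there among 334 genes, and voom 21 among 2199. The smallest p-values went to Rsad2 (-1.08 ± 0.38) and Ifnar1 (-0.78 ± 0.31) contralaterally, both at an adjusted p of 0.920. Over both sides they went to Ifi35 (1.00 ± 0.28, 0.173) and Slfn2 (2.08 ± 0.59, 0.181).

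In the libraries labelled Ezh2 ECKO, 4 of the 98 pathway genes passed the test against MCAO ipsilateral and all 4 were lower, against 1.46% of all genes called, 211 of 250 lower. Ifi35, an interferon-induced leucine zipper protein, fell by 2.25 ± 0.41 on the log2 scale, from 324, 476 and 191 to 72.3, 75.97 and 59.5 CPM (adjusted p 0.0208). Ly6e, a membrane-anchored surface protein, fell by 2.33 ± 0.49, from 6117, 7928 and 4936 to 1612, 1029 and 1140.3 CPM (0.0291). Lgals9, which encodes the sugar-binding protein galectin-9, fell by 2.50 ± 0.57, from 378, 670.2 and 213 to 105, 18.7 and 100.2 CPM (0.0373). Ifitm10, a divergent member of the Ifitm family, fell by 4.64 ± 1.16, from 20.99, 31.3 and 7.68 to 0.917, 1.08 and 0.391 CPM (0.0479). In each of the 4, all Ezh2 ECKO libraries were below all MCAO ipsilateral libraries, as in 30 of the 98 pathway genes and 15.3% of all genes. The 4 were picked by the test on these same libraries, so this separation adds no support. The list's median was -0.55, against 0.17 for all tested genes, and 38 of its 98 genes had higher means. With the length trend removed these medians were -0.07 and 0.37, and with the GC trend removed -0.21 and 0.37. With receptor reads as a covariate they were -0.23 and -0.01. Of the 13 sensors 10 had a higher mean and their median was 0.24, near that of all genes, of which 9478 of 17094 were higher. The RNA sensor Ifih1 had 1.05 ± 0.35 (adjusted p 0.117).

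These 4 calls depended on single libraries and on the fit. None was made without MCAO ipsilateral replicate 1, without MCAO ipsilateral replicate 2 or without Ezh2 ECKO replicate 3, and 1 (Ifi35) without Ezh2 ECKO replicate 2, although their log2 fold changes lay between -4.93 and -1.89 in those fits. None was made with receptor reads as a covariate, where the 4 values lay between -2.19 and -1.59, nor with the replicate number as a block, where Ly6e had -2.34 and Ifi35 -2.24. Ifitm10 also missed the threshold with limma-trend (adjusted p 0.0556), voom (0.0858), the GC trend removed (0.0532), red cell genes removed (0.0529) and without Ezh2 ECKO replicate 1 (0.0801). Without the 3 libraries rich in receptor reads the 4 passed again, with 5 others of the list and 891 genes in all. Between the libraries labelled Hdac2 ECKO and MCAO ipsilateral no pathway gene passed, and Slfn2, a regulator of T cell quiescence, had the smallest p (-2.74 ± 0.86, adjusted p 0.394), then Oasl2 (-0.91 ± 0.33, 0.415); DESeq2 called Slfn2 among 239 genes. Between the libraries labelled Hdac2 ECKO and those labelled Ezh2 ECKO none passed either, with Irf1 (1.70 ± 0.44, 0.119) and Ifi35 (1.46 ± 0.40, 0.152) first. DESeq2 called 6 of the 98 there among 647 genes, namely Ifi203, Ifi27, Ifi35, Irf1, Tlr3 and Trex1.

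**Figure D5:**
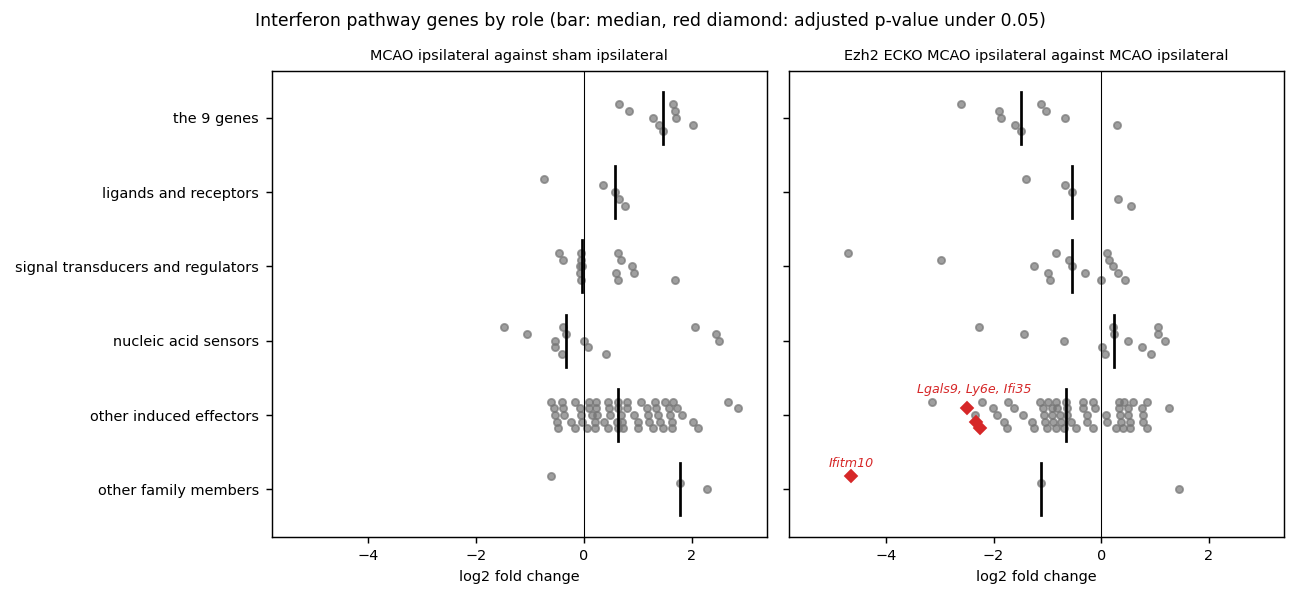
Log2 fold change of the 9 genes and of 98 further interferon pathway genes by role, in MCAO ipsilateral against sham ipsilateral and in Ezh2 ECKO against MCAO ipsilateral; a point is a gene, the bar is the median and red diamonds passed the test. Medians of the 9 genes are 1.47 and -1.49, and the 4 diamonds are Ifi35, Ly6e, Lgals9 and Ifitm10, all below 0 on the right.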

How the data were processed

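Messenger RNA of sorted mouse brain endothelial cells was sequenced in 18 libraries, in 6 groups of 3. The deposited table holds 1 count per gene and library for 21638 genes. The submitters' processing notes name FastQC, cutadapt, STAR, featureCounts and DESeq2 and the build mm10, without versions or order. The table's name calls its values normalized, but they are whole numbers whose totals differ between libraries, and they were treated as unscaled counts; if they had been scaled and rounded, the tests would rest on another variance.

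The 9 genes were taken by symbol. They, the pathway and marker lists and the tests were chosen with earlier results of these data known. Counts were scaled by TMM in edgeR 4.0.16 (R 4.3.3), and 17094 genes with at least 10 counts in at least 3 libraries were kept. A quasi-likelihood model of 6 group means was fitted to all 18 libraries, without covariates, and p-values were adjusted over the 17094 genes by Benjamini and Hochberg, with a threshold of 0.05. Each SE is the absolute log2 fold change over the root of F. The procedure was run on simulated counts with planted changes. These counts were drawn without trends on receptor reads or feature length, so the run does not bear on those. Among the 9 genes, the text details the 2 with the smallest p-value in each comparison, and likewise 2 pathway genes, and names every gene called. The alternatives were DESeq2 1.42.0 and its scaling, limma 3.58.1 (limma-trend and voom), no filter, a block for replicate number, only the groups compared, the sum of both sides, red cell genes removed, receptor reads as a covariate and each library left out. After the data were seen, trends on feature length and GC content and leaving out the 3 libraries with the most receptor reads were added. Promoters and motifs were read from RefSeq (GRCm38.p6), and loci from GENCODE. Depth ran from 25791401 to 57576255 counts per library.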

Additional observations from a re-analysis of the deposited data

How the results depend on the processing

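The test calls none of the 9 genes in any of the 9 comparisons. No alternative reversed the direction of the 2 genes detailed in each, which were picked for the smallest p-values. Others of the 9 did reverse. Bst2 kept its sign in 17 of 18 alternatives in MCAO ipsilateral against sham ipsilateral. Contralaterally, Ifit1 kept its sign in 15 of 18, Bst2, Ifitm2 and Ifitm3 each in 16 and Ifit3 in 17. Over both sides it was 19 of 25 for Bst2 and 21 of 25 for Ifi27l2a. Between the MCAO sides, Isg15 and Ifitm2 each kept theirs in 15 of 18, and Ifit1 and Ifitm1 in 17. Irf7 kept its sign in 14 of 18 between the sham sides. Against MCAO ipsilateral, Ifit1 and Ifit3 each kept theirs in 17 of 18 in Ezh2 ECKO, and Ifit1 in 11 of 18 in Hdac2 ECKO. Also in Hdac2 ECKO, Bst2 kept its sign in 16 of 18 and Isg15 and Ifitm1 each in 17. Between the 2 deletions it was 12 of 18 for Irf7, 16 for Ifit3 and 17 for Ifit1. The median of the 9 changed sign in the Hdac2 ECKO comparison, where it was -0.03 and ran up to 0.19 with the length trend removed, and contralaterally, where it was 0.24 and -0.10 without MCAO contralateral replicate 3; in the other 7 comparisons it kept its sign. In MCAO ipsilateral against sham ipsilateral, the number called was 1 with DESeq2 (71 of all 17094 genes), 6 when only these 2 groups were fitted (220) and 6 with voom (1273). Over both sides it was 2 with DESeq2 (334 of all genes), 1 with only these groups (23), 6 with voom (2199) and 3 without the 3 libraries with the most receptor reads (130), and 0 of all genes were called with both sides summed; leaving out single libraries gave 0 to 1. In the libraries labelled Ezh2 ECKO against MCAO ipsilateral it was 2 with RLE scaling (368 of all genes), 3 with DESeq2 (1617), 2 with only these groups (422), 1 with limma-trend (403), 2 with voom (377), 3 with the length trend removed (339) and 2 without those 3 libraries (891); leaving out single libraries gave 0 to 2. Between the 2 deletions it was 3 with DESeq2 (647 of all genes), 1 with only these groups (14) and 1 with receptor reads as a covariate (54). The causes were not tested. With the replicate number as a block (replicate block), 0 of the 9 genes were called in every comparison, none of the 4 pathway genes was called in Ezh2 ECKO (adjusted p 0.0558 to 0.0759), and over all genes the count fell to 12 from 250 there, to 4 from 26 over both sides and to 9 from 21 between the deletions. Whether same-numbered sides came from the same mouse is not given, and the data did not settle it: the correlations of same-numbered deviations were 0.376, 0.350 and -0.127 between the sham sides and 0.294, 0.393 and 0.0347 between the MCAO sides. DESeq2 called 239 genes in Hdac2 ECKO. RLE scaling gave 40 over both sides and moved the median of all genes in Ezh2 ECKO from 0.17 to 0.36. The 3 libraries per group and the receptor reads limit what can be told for all 9 genes, not only for those with low counts. Ifitm3, which had the highest level, was at its lowest in the 3 libraries with the most receptor reads (507, 954 and 1027 CPM). The part of these reads was not tested.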
